A study of Mus musculus with 23 samples.

Results

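The MYC and MAX network is a small family of transcription factors, and its 10 genes Myc, Mycn, Mycl, Max, Mxd1, Mxd3, Mxd4, Mnt, Mga and Mlx were taken by gene symbol from the 25124 genes of the RNA table of a study of BACH1 in mouse embryonic stem cells. RNA was sequenced from polyA libraries of E14Tg2A cells, a mouse embryonic stem cell line grown here in serum with leukemia inhibitory factor (LIF) on gelatin, with 3 libraries of wild-type cells (WT) and 3 of Bach1 -/- cells made with CRISPR/Cas9 (knockout). No other allele or treatment is given for these 6 libraries, and since no clone is named in the labels, the loss of Bach1 and other differences between the cultures cannot be told apart. The study's design text calls the libraries biological triplicates, and the p-values below measure the spread between them. The 17 chromatin samples of the 23 in the series were not used here.

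All proteins of the network share a basic helix-loop-helix leucine zipper and bind DNA as dimers. MYC, MYCN and MYCL pair with MAX on the E-box CACGTG and activate genes of growth and metabolism, while the MXD proteins, MNT and MGA compete for MAX and recruit corepressors. MLX is a MAX-like partner that joins MNT, some MXD proteins and the nutrient-responsive Mondo factors. In mouse embryonic stem cells Myc and Mycn act redundantly in self-renewal, Myc is a target of LIF and STAT3, and MAX with MGA belongs to the Polycomb complex PRC1.6 that keeps germ line genes silent.

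Values are TPM, an abundance scaled to transcript length and library. They hold no read depth, and the counting error is therefore unknown. TPM are given per library in the order of replicates 1, 2 and 3, means are ± SD with n = 3, and a log2 fold change is the knockout mean of log2(TPM + 1) less that of WT, a scale that understates changes at low levels. The listed TPM summed to 604964 to 606200 per library. Of 12196 genes tested with limma, 83.0% passed a Benjamini-Hochberg adjusted p of 0.05, 28.3% higher and 54.8% lower in the knockout, and the median log2 fold change was -0.20. With so wide a difference the number of network genes that passed, 6 of the 8 tested, is close to the background and carries no result of its own, so sizes of change are given throughout. In 84.3% of tested genes the libraries of the genotypes did not overlap.

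Bach1 stood at 2.35, 2.50 and 2.70 TPM in WT and at 1.69, 1.76 and 2.045 TPM in the knockout, a fall (adjusted p = 0.00282) whose call ended after median-of-ratios scaling (adjusted p = 0.0730), and Hmox1, the heme oxygenase gene repressed by BACH1, rose 3.73-fold to 304 ± 2.04 TPM (adjusted p = 5.00e-11). The labels do not place the edit within Bach1. All 10 markers of embryonic stem cells passed the filter on low values, summing to 5262 to 5426 TPM in WT and 6658 to 6811 TPM in the knockout, with 5 higher and 5 lower. The higher sum was carried by Dppa5a (2771 and 3701 TPM on average), Utf1 (38.6 and 491 TPM) and Pou5f1 (1232 and 1557 TPM). The 5 lower ones were Nanog, which fell 2.63-fold from 306 to 117 TPM on average, Esrrb, which fell 1.81-fold, Tdgf1, Sox2 and Fgf4. Of 20 fibroblast (feeder) markers, 11 lay under 1 TPM in every library, Col1a1, Col1a2 and Col3a1 among them, and of the 9 tested 5 rose and 3 fell. The list summed to 254 to 259 TPM in WT and 98.9 to 104 TPM in the knockout, a sum carried by Vim (153 and 23.6 TPM on average) and Fn1 (92.5 and 27.2 TPM), while Tagln rose 15.1-fold, Acta2 11.2-fold, Loxl1 5.78-fold, Twist1 5.11-fold and Thy1 3.84-fold. Acta2, Loxl1 and Twist1 lay under 1 TPM in every WT library and passed the filter only through the knockout, which built in their rises. Pdgfrb, which fell, passed it only through WT. Of 12 trophectoderm markers 6 rose and 2 fell, and their sum went from 97.5 to 101 TPM in WT to 412 to 420.5 TPM in the knockout, led by the keratins Krt18 and Krt8. Among the regulators in that list Hand1 rose from 0.323 to 4.09 TPM on average, Gata3 from 0.112 to 1.48 TPM and Ascl2 from 1.42 to 8.09 TPM, Tead4 and Tfap2c fell, and Cdx2 and Elf5 lay under 1 TPM in every library. Hand1 and Gata3 passed the filter only through the knockout, which built in their rises. Eomes (1.34 and 1.75 TPM on average, adjusted p = 0.0589) and Plet1 (adjusted p = 0.600) were tested and did not pass. The 12 primitive endoderm markers summed to 238 to 246 and 132 to 137 TPM, with 4 of 6 tested higher and 2 lower and the defining factors Gata4 and Gata6 untested. The 2 lower ones, Sparc (219 and 94.0 TPM on average) and Lama1 (13.1 and 3.56 TPM), carried the fall of the sum, while Lamb1, Col4a1, Dab2 and Amn rose. Dab2 passed the filter only through the knockout. The 8 neuroectoderm markers summed to 86.3 to 89.6 and 52.4 to 53.7 TPM, with 3 of 3 tested lower and Sox1 and Pax6 untested. In all these lists 0 genes lay at 0 in every library, and the part of such cells in the results below was not tested. In bulk samples fewer cells of a type and less RNA per cell cannot be told apart.

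Among the MYC genes, the activators of the network, Myc and Mycn rose and the change of Mycl did not pass. Myc, the MYC gene most widely used across tissues, stood at 1.85, 2.63 and 2.32 TPM in WT and at 24.5, 23.0 and 22.0 TPM in the knockout. All knockout libraries lay far above all WT libraries, and the mean went from 2.27 ± 0.394 to 23.2 ± 1.29 TPM, a 10.2-fold difference (log2 fold change 2.89, SE 0.0868, adjusted p = 4.76e-09). By log2 fold change this was number 55 among the 12196 tested genes. The size for Myc depends on the pseudocount, since its WT level is low, with log2 fold changes of 3.31 and 1.95 at pseudocounts of 0.1 and 5.

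Mycn, the MYC gene typical of early embryonic and neural progenitor cells, stood at 27.8, 30.1 and 29.0 TPM in WT and at 71.2, 69.4 and 73.5 TPM in the knockout. Again the groups did not overlap, and the mean rose 2.47-fold from 28.9 ± 1.17 to 71.4 ± 2.03 TPM (log2 fold change 1.27, SE 0.0372, adjusted p = 4.06e-09). This was number 535 by log2 fold change. Myc and Mycn were the 2 members to pass the test with at least a 2-fold rise in mean TPM, against a background of 9.79% of tested genes, and 0 members fell that far, against 15.5%. In the authors' deposited table of 1883 transcripts higher in the knockout, Myc has a log2 fold change of 3.31 (p = 2.71e-05) and Mycn one of 1.3 (p = 5.95e-06).

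Mycl, the least abundant MYC gene in the knockout, stood at 2.84, 3.32 and 3.19 TPM in WT and at 3.23, 3.80 and 3.49 TPM in the knockout. The libraries of the genotypes overlapped, and the means of 3.12 ± 0.251 and 3.51 ± 0.287 TPM differed by 0.13 on the log2 scale (SE 0.0720, adjusted p = 0.120). With quantile normalization it was 0.32 (adjusted p = 0.00242), and over all alternatives the adjusted p ranged from 0.00242 to 0.342.

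**Figure D1:**
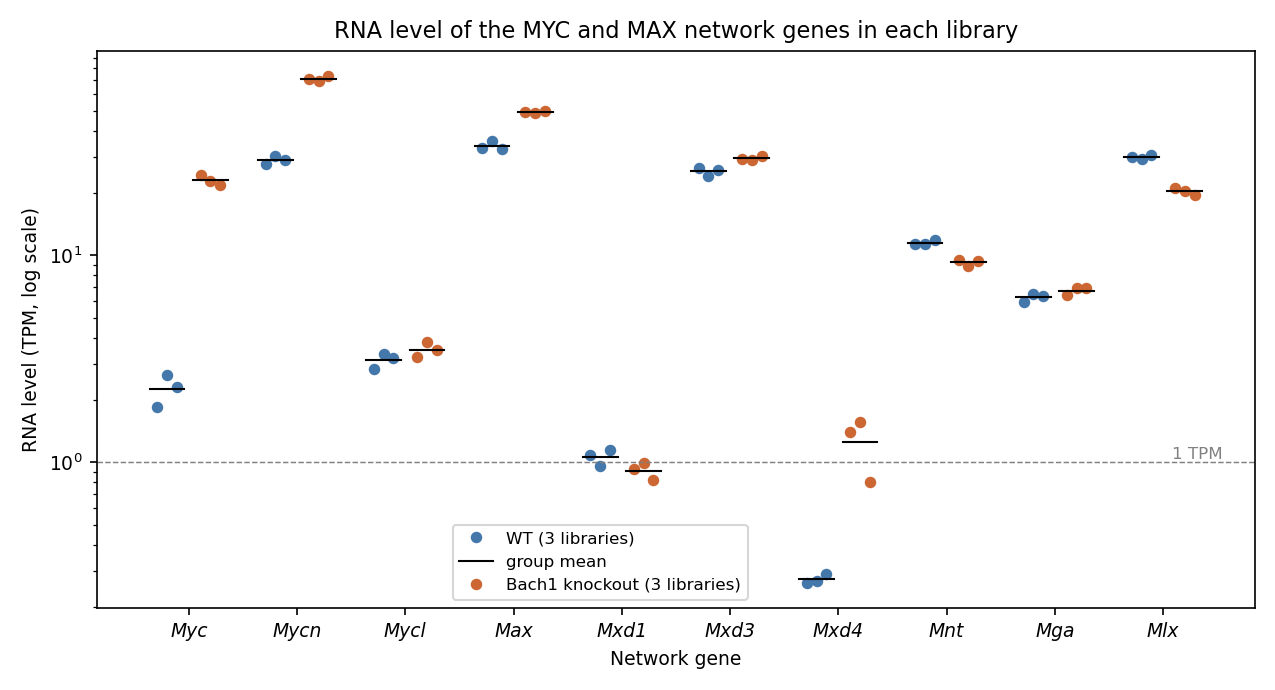
TPM of each network gene on a log scale, with 1 point per library for WT (blue) and Bach1 knockout (orange) cells, black lines at the means of 3 libraries and a dashed line at 1 TPM. Myc goes from near 2 to near 23 TPM and Mycn from near 29 to near 71 TPM, whereas Mycl and Mga overlap between the genotypes and Mxd1 and Mxd4 lie around or below 1 TPM.

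The promoter window of Mycn, 250 bases before to 50 after its start, is shown because Mycn is the main source of MYC-family RNA here. It was read from RefSeq (GRCm38.p6, chr12:12941787-12942086, minus strand). The capitals mark matches to E2F-type letters, TTTCGCGC, TTTGGCGC or TTTCCCGC on either strand, and the first run holds 2 overlapping matches. Such a match stood in 1.84% of all 32851 RefSeq windows and 3.68% of the 12037 windows of genes tested here, and CACGTG was not in this window.
Mycn: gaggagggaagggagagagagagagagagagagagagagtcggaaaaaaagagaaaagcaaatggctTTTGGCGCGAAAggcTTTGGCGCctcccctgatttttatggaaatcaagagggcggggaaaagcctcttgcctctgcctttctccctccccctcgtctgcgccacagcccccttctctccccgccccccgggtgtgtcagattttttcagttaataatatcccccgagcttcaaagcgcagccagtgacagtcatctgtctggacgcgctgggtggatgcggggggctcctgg

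MAX is the shared partner without which MYC proteins do not bind the E-box. Max RNA stood at 33.1, 35.9 and 32.8 TPM in WT and at 49.2, 48.8 and 49.6 TPM in the knockout. Every knockout library was above every WT library, and the mean rose 1.45-fold from 33.9 ± 1.71 to 49.2 ± 0.398 TPM (log2 fold change 0.53, SE 0.0381, adjusted p = 1.34e-06). Mlx, which codes for the MAX-like partner, went the other way, from 29.8, 29.4 and 30.6 TPM in WT to 21.1, 20.4 and 19.6 TPM in the knockout. These groups did not overlap either, and the mean fell from 29.9 ± 0.640 to 20.4 ± 0.760 TPM (log2 fold change -0.53, SE 0.0378, adjusted p = 1.19e-06). Max thus stood at 1.13 ± 0.0786 times the level of Mlx in WT and at 2.42 ± 0.103 times in the knockout. Mlx overlaps Psmc3ip, a gene of meiotic recombination, in the RefSeq annotation, and Psmc3ip fell from 48.3 ± 1.87 to 33.0 ± 1.04 TPM. No strand setting is stated for the counting, and reads of the stretch they share cannot be separated.

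The tested antagonists of MYC, Mxd3, Mnt and Mga, had log2 fold changes between -0.29 and 0.20. Mxd3, an MXD gene of cycling cells, had the highest level of this group, at 26.5, 24.2 and 25.9 TPM in WT and 29.2, 29.0 and 30.1 TPM in the knockout. The groups lay close but did not overlap, and the mean rose 1.15-fold from 25.6 ± 1.20 to 29.4 ± 0.619 TPM (log2 fold change 0.20, SE 0.0404, adjusted p = 0.00148). Prelid1, whose annotation overlaps Mxd3, stood at 316 ± 5.66 and 269 ± 8.60 TPM, far above Mxd3. Reads of the stretch they share cannot be separated here either, which leaves the level of Mxd3 uncertain. Mnt, a broadly expressed repressor that is the main antagonist of MYC in many cells, stood at 11.4, 11.4 and 11.8 TPM in WT and at 9.49, 8.84 and 9.44 TPM in the knockout. All knockout values were below all WT values, and the log2 fold change was -0.29 (SE 0.0452, adjusted p = 0.000260). Relative to the median of all tested genes this was a difference of -0.09, and the call for Mnt ended after quantile normalization (adjusted p = 0.209) and median-of-ratios scaling (adjusted p = 0.152), within a range of 0.000181 to 0.209 over all alternatives.

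Mga, a large protein with a T-box domain beside its helix-loop-helix and the scaffold of PRC1.6, stood at 5.97, 6.54 and 6.36 TPM in WT and at 6.44, 6.94 and 6.93 TPM in the knockout. The groups overlapped and the log2 fold change of 0.09 (SE 0.0542) did not pass (adjusted p = 0.145). With quantile normalization it was 0.32 (adjusted p = 0.000405), and over all alternatives the adjusted p ranged from 0.000405 to 0.369. The 2 remaining members failed the filter of at least 1 TPM in at least 3 libraries and have no test. Mxd1, an MXD gene induced as many cells differentiate, stood at 1.09, 0.957 and 1.15 TPM in WT and at 0.929, 0.989 and 0.821 TPM in the knockout, which overlap. Mxd4, a further MXD gene of differentiating cells, stood at 0.263, 0.266 and 0.289 TPM in WT and at 1.40, 1.56 and 0.800 TPM in the knockout, which do not overlap but spread widely in the knockout. The authors' deposited table lists Mxd4 as higher with a log2 fold change of 2.4 (p = 0.00207), and 0 members are in their list of 2523 lower transcripts.

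**Figure D2:**
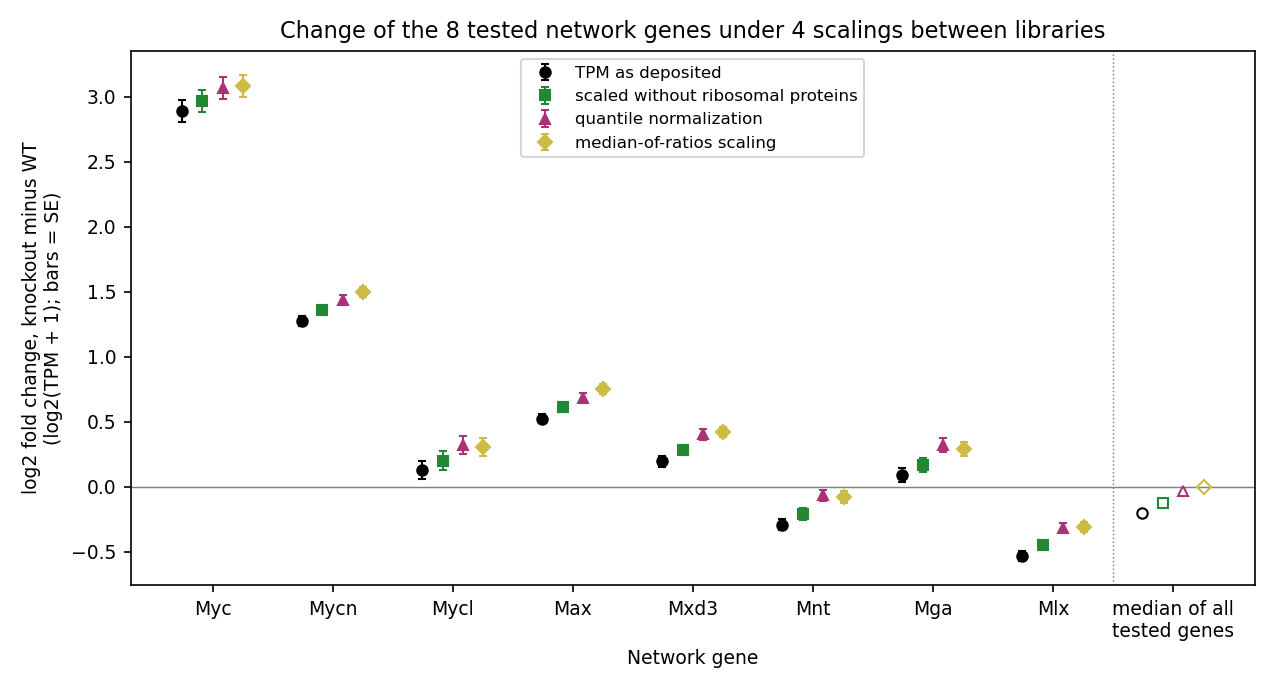
Log2 fold changes (knockout minus WT, log2(TPM + 1), bars are SE) of the 8 tested network genes for TPM as deposited and for 3 other scalings between libraries, with the median of all tested genes at the right as open symbols. Myc, Mycn, Max and Mxd3 lie above 0 and Mlx below it under all 4, while Mnt comes close to 0 and Mycl and Mga move away from it as the median of all genes nears 0.

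The letters CACGTG, the E-box that MYC and MAX bind, were searched in the RefSeq windows of the 9 members matched there by symbol, all but Myc. They stood once each in the windows of Max, Mlx, Mnt and Mxd4, against 7.15% of all 32851 windows and 10.4% of the windows of genes tested here. Max had risen and Mlx and Mnt had fallen in the knockout, so the members with these letters did not share a direction. The match lies across the start in Max, beginning 3 bases before it, and begins 40 bases before the start in Mlx, 123 in Mnt and 219 in Mxd4. The windows are shown with the E-box in capitals so that its place can be compared. They lie at chr12:76962199-76962498 (Max, minus strand), chr11:101087040-101087339 (Mlx, plus strand), chr11:74830674-74830973 (Mnt, plus strand) and chr5:34187661-34187960 (Mxd4, minus strand) of GRCm38.p6.
Max: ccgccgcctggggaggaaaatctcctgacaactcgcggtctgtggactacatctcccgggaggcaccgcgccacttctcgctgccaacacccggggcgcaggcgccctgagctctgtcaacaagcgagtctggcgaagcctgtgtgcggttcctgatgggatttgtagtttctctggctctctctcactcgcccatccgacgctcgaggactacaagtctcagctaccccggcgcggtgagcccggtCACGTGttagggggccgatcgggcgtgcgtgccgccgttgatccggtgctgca
Mlx: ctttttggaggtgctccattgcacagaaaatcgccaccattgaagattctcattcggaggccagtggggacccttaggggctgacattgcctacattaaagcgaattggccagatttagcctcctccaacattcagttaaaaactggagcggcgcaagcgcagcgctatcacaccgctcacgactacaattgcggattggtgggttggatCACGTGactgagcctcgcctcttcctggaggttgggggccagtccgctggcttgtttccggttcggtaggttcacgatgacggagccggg
Mnt: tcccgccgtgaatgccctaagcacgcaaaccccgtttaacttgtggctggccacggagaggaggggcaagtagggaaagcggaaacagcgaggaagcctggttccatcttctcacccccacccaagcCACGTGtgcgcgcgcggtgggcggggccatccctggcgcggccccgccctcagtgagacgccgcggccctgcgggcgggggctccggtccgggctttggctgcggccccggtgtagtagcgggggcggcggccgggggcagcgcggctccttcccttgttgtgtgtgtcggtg
Mxd4: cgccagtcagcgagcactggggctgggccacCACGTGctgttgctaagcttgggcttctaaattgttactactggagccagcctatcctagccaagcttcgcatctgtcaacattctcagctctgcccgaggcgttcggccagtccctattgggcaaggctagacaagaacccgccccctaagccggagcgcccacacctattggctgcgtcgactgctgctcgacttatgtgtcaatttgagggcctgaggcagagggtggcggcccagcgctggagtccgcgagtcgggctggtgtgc

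The order of levels within the network changed between the genotypes. In WT cells the order from high to low was Max, Mlx, Mycn, Mxd3, Mnt, Mga, Mycl, Myc, Mxd1 and Mxd4, and of these neighbours only Mlx and Mycn overlapped in their library values. In the knockout it was Mycn, Max, Mxd3, Myc, Mlx, Mnt, Mga, Mycl, Mxd4 and Mxd1, and only the last pair overlapped. Mycn thus moved from place 3 in WT to place 1 in the knockout, and Myc from place 8 to place 4.

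Summed over Myc, Mycn and Mycl, MYC-family RNA was 32.4, 36.0 and 34.5 TPM in WT and 98.9, 96.2 and 98.9 TPM in the knockout. Every knockout sum was above every WT sum, and the mean went from 34.3 ± 1.81 to 98.0 ± 1.56 TPM, or 2.86-fold. Mycn made up 84.4 ± 1.07% of it in WT and 72.8 ± 1.29% in the knockout, and Myc 6.58 ± 0.809% and 23.6 ± 1.32%. The antagonists Mxd1, Mxd3, Mxd4, Mnt and Mga together held 45.2, 43.4 and 45.5 TPM in WT and 47.4, 47.3 and 48.1 TPM in the knockout, a 1.06-fold difference in the means. The knockout sums were again higher in every library, but by a small amount, and Mxd3 made up 57.1 ± 1.43% and 61.8 ± 0.722% of them. Mxi1, a further antagonist gene outside the members, was left out of these sums. As deposited, Mxi1 fell from 8.12 ± 0.138 to 6.20 ± 0.681 TPM (adjusted p = 0.00148). It is 1 of the 6 related E-box binding factors listed below, of which 4 were lower as deposited and 1 after median-of-ratios scaling. With Mxi1 added, the antagonist sum differed between the genotypes by 0.027 on the log2 scale, against 0.09 without it.

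The RNA of the MYC genes therefore stood at 0.768 ± 0.0574 times that of the antagonists in WT and at 2.06 ± 0.0268 times in the knockout. Against Max the MYC sum was 1.01 ± 0.0369 in WT and 1.99 ± 0.0197 in the knockout. These sums were made over members chosen with earlier results known and carry no test. They rest on the RNA of 1 listed transcript per gene, not on protein. RefSeq lists 4 curated transcripts each for Myc and Max, 3 for Mlx, 2 for Mycl and Mga and 1 for the other members. No counting setting is stated, so whether reads of the remaining transcripts entered these levels is unknown. Whether reads of Prelid1 entered the level of Mxd3, and with it the antagonist sum and the ratio, is unknown too.

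**Figure D3:**
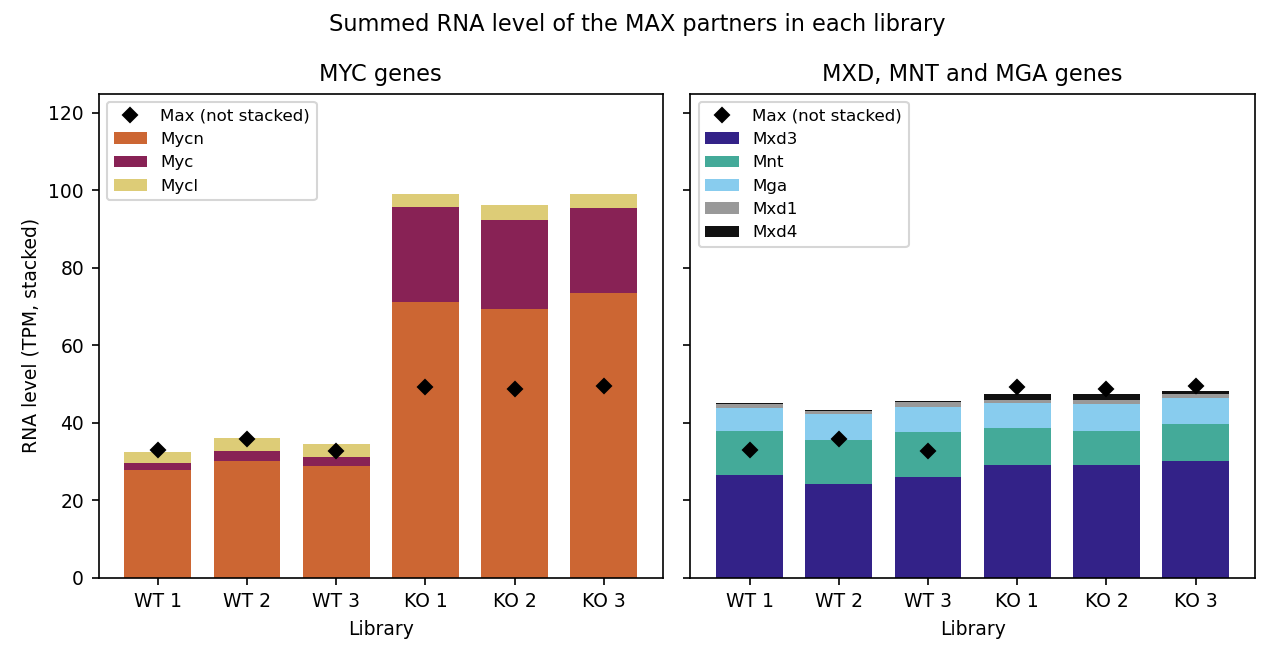
Stacked TPM in each library of the MYC genes (left) and of the MXD, MNT and MGA genes (right), with Max as black diamonds in both panels. The MYC stack rises from 32.4 to 36.0 TPM in WT to 96.2 to 98.9 TPM in the knockout, and the antagonist stack stays between 43.4 and 48.1 TPM.

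The genes around the network were grouped by role, and no list was tested as a set. The counts of each list are to be read against all tested genes. Of these, 28.3% rose and 54.8% fell as deposited, and 4869 rose and 4871 fell after median-of-ratios scaling. Of 6 related E-box binding factors, 2 rose and 4 fell (median log2 fold change -0.26), or 2 and 1 after median-of-ratios scaling. Usf1, an upstream stimulatory factor that binds the same E-box, rose from 57.8 ± 1.41 to 83.9 ± 1.14 TPM, and Usf2, its relative, fell from 18.7 ± 1.56 to 14.1 ± 1.02 TPM, a call that median-of-ratios scaling ended (adjusted p = 0.0567). The Mondo partners of MLX parted, with Mlxip (MondoA) rising from 1.51 ± 0.101 to 2.59 ± 0.303 TPM and Mlxipl (ChREBP) falling from 7.68 ± 0.529 to 5.21 ± 0.339 TPM.

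Of 16 cofactors through which MYC acts on chromatin and polymerase, 4 rose and 8 fell as deposited. These shares, 25% and 50%, are near the 28.3% and 54.8% of all tested genes. After median-of-ratios scaling 9 rose and 4 fell, so this split follows the scaling. Wdr5, which anchors MYC to chromatin, fell from 95.9 ± 0.0764 to 49.0 ± 0.808 TPM, and Actl6a, a subunit of remodeling and acetyltransferase complexes, from 69.2 ± 0.720 to 42.2 ± 1.40 TPM. Zbtb17, which codes for the MYC partner MIZ1 in repression, fell from 21.4 ± 0.812 to 14.1 ± 0.894 TPM, and Bptf, a remodeling factor that works with MYC, rose from 4.15 ± 0.158 to 6.84 ± 0.147 TPM.

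Of 10 corepressor genes used by MXD and MNT proteins, 1 rose (10%) and 8 fell (80%), against 28.3% and 54.8% of all tested genes. After median-of-ratios scaling the counts were 5 and 5. Ncor1, a nuclear corepressor, fell from 18.2 ± 0.384 to 8.38 ± 0.117 TPM, Sap30, a SIN3 subunit, from 110 ± 4.67 to 52.4 ± 2.85 TPM, and the deacetylases Hdac2 and Hdac1 fell by 0.67 and 0.55 on the log2 scale. Of 10 partners of MGA in PRC1.6, 3 rose (30%) and 7 fell (70%) as deposited, with a median log2 fold change of -0.35. After median-of-ratios scaling the counts were 3 and 5. Pcgf6, the subunit that defines PRC1.6, fell from 29.0 ± 1.63 to 22.0 ± 0.425 TPM, Cbx3 and Rybp fell by 0.98 and 0.59 on the log2 scale, and Cbx1, a heterochromatin protein, rose from 96.7 ± 2.32 to 155 ± 5.07 TPM.

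Genes that set the stability of MYC proteins moved both ways, with 6 of 14 higher (42.9%) and 7 lower (50%). Over all tested genes 28.3% were higher and 54.8% lower. After median-of-ratios scaling 9 of the list were higher and 3 lower. Usp36 and Usp28, deubiquitinases that stabilize MYC, rose from 6.01 ± 0.203 to 14.6 ± 0.277 TPM and from 13.4 ± 1.02 to 22.2 ± 0.416 TPM. Gsk3b, a kinase that marks MYC for degradation, fell from 5.45 ± 0.273 to 1.86 ± 0.0440 TPM, and Cip2a, a protein that shields MYC from a phosphatase, fell from 12.2 ± 0.690 to 7.02 ± 0.169 TPM.

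Known targets of MYC did not move as one. Of 29 tested growth genes that MYC activates, 11 rose (37.9%) and 12 fell (41.4%) as deposited, against 28.3% and 54.8% of all tested genes. The median log2 fold change was -0.01, against -0.20 over all tested genes. After median-of-ratios scaling 18 of the list rose and 8 fell, where 4869 of all tested genes rose and 4871 fell. Odc1, the first enzyme of polyamine synthesis, rose from 91.4 ± 1.83 to 136 ± 0.985 TPM and Nme1, a nucleoside diphosphate kinase, from 254 ± 1.76 to 374 ± 9.50 TPM. Npm1, a nucleolar chaperone, fell from 3367 ± 37.9 to 1973 ± 24.3 TPM and Ldha, lactate dehydrogenase A, from 848 ± 6.65 to 504 ± 2.00 TPM. Processed pseudogenes of Npm1, Ldha and Cbx3 may share reads with them, which makes these levels uncertain.

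Of 8 tested genes that MYC is known to repress, 3 rose (37.5%) and 4 fell (50%), against 28.3% and 54.8% of all tested genes. The cell cycle inhibitors Cdkn1a (p21) and Cdkn1b (p27) fell, the former from 73.9 ± 1.62 to 30.5 ± 0.546 TPM and the latter from 11.9 ± 0.723 to 4.57 ± 0.219 TPM. Against them Cdkn1c (p57), an imprinted inhibitor, rose from 0.794 ± 0.190 to 21.5 ± 0.860 TPM and Gadd45a, a stress response gene, from 5.39 ± 0.481 to 57.3 ± 3.38 TPM.

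Germ line genes listed as repressed by MAX and MGA in mouse embryonic stem cells ranged in log2 fold change from -2.82 to 2.49. Of 13 tested genes 8 were higher (61.5%) and 5 lower (38.5%), against 28.3% and 54.8% of all tested genes. By at least 2-fold, 7 were higher and 2 lower, against 9.79% and 15.5% of all tested genes. The median log2 fold change was 0.84, against -0.20 over all tested genes. Taf7l, Tdrd1 and Slc25a31 lay under 1 TPM in every WT library and passed the filter only through the knockout. Their rises were thus built in by the filter, and the counts and the median of this list lean toward rises. Several members were not silent in WT, among them Hormad1 at 11.3 TPM and Sycp3 at 6.47 TPM on average. Mael, a piRNA factor, rose from 1.24 ± 0.0776 to 8.57 ± 0.237 TPM and Taf7l, a germ cell TFIID subunit, from 0.726 ± 0.178 to 8.65 ± 0.193 TPM. Stra8, needed to enter meiosis, fell from 16.7 ± 0.868 to 1.52 ± 0.246 TPM and Dazl, a germ cell RNA-binding protein, from 14.5 ± 0.785 to 2.06 ± 0.302 TPM. In the same list Ddx4, the germ cell helicase, rose to 5.64 TPM on average and Hormad1, a protein of meiotic chromosome axes, fell to 7.26 TPM, and these, like Sycp3, were picked here after their values were seen.

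**Figure D4:**
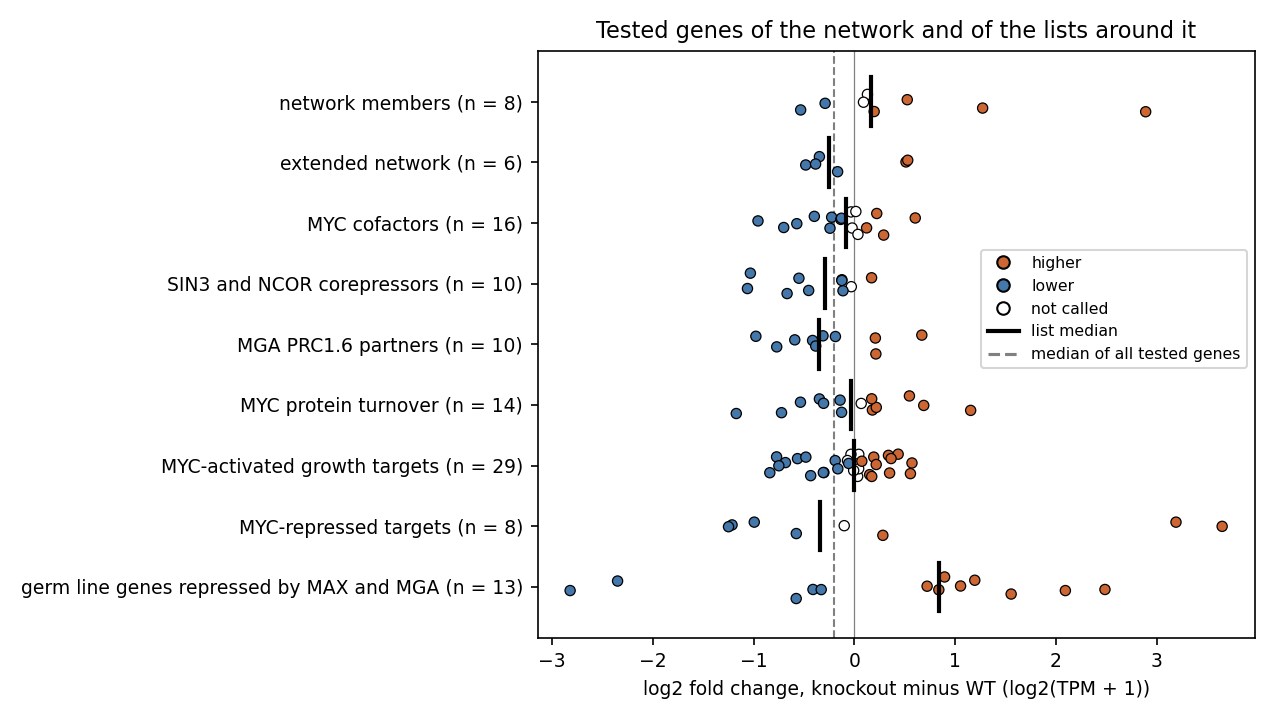
Log2 fold changes (knockout minus WT) of the tested network genes and of the tested genes of 8 lists around it, with 1 point per gene colored by its call, black bars at list medians and a dashed line at the median of all tested genes. The germ line list has its median at 0.84 with 2 genes below -2, and the list of growth targets centers near 0, above the dashed line at -0.20. In the germ line list Taf7l, Tdrd1 and Slc25a31 passed the filter only through the knockout.

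Among the genes whose levels over the 6 libraries were nearest to those of Myc, by Euclidean distance of log2(TPM + 1), were Crmp1, Calca, Pilra and Lmo4, at distances of 0.482 to 0.659. Crmp1, a cytosolic phosphoprotein of neurons, stood at 2.67 ± 0.208 and 21.9 ± 1.33 TPM in WT and knockout. Nearest to Mycn were Tex19.1, Med11, Rhox5, Chchd7 and Ctbp2, at 0.0820 to 0.330, and Tex19.1 stood at 29.2 ± 0.800 and 72.7 ± 0.512 TPM. Both sets were picked for this likeness, and with 6 libraries in 2 groups it mostly measures level and size of change.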

How the data were processed

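Groups came from the sample titles. Per the submitters' processing notes, Trim Galore, HISAT2, HOMER and limma were used for the RNA samples, with mm9 as the build and no roles, counting or strand setting stated. The deposited RNA table gives TPM, 1 RefSeq transcript per gene, per the file headers. Lists of higher and lower transcripts deposited by the authors hold log2 fold changes with a p-value each, and state no pseudocount or adjustment. The peak lists are in mm9 and were not used here.

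A pseudocount of 1 was added to the TPM before taking log2, and a gene was tested if 3 or more of the 6 libraries reached 1 TPM. The genotypes were compared by limma 3.58.1 in R 4.3.3 (lmFit, eBayes with trend, two-sided) with Benjamini-Hochberg adjustment over all 12196 genes and calls at 0.05. The step was also run on simulated data in which few genes changed, in random directions. These data differ from that setting, so the run does not bear on the scaling between libraries. Alternatives were other pseudocounts, filters and scalings, no variance trend, the replicate number as a block and leaving out each library. The last scaling left out 85 ribosomal protein genes by symbol.

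The members and lists were chosen with earlier results of these data known. Named genes are the 10 members, up to 4 of each list with the smallest p, the 5 nearest each to Myc and Mycn, Bach1 and Hmox1, of which 1 is not reported here. Marker genes and others outside this rule are named where a sentence turns on them. All 173 list entries matched the table by symbol. Promoter windows and motifs were read with Python 3.11.15 from RefSeq, GRCm38.p6, and figures were drawn with matplotlib 3.10.9.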

Additional observations from a re-analysis of the deposited data

How the results depend on the processing

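Directions and calls of Myc, Mycn, Max, Mxd3 and Mlx held under all 15 alternatives each, with log2 fold changes of 1.95 to 3.31, 1.17 to 1.501, 0.48 to 0.75, 0.16 to 0.42 and -0.56 to -0.31. Mycl and Mga passed after quantile normalization (0.32 and 0.32), median-of-ratios scaling (0.31 and 0.29) and scaling without ribosomal proteins (0.20 and 0.17), and Mnt no longer passed after the first (-0.064) and second (-0.077); the median of all genes moved from -0.20 to -0.03, -0.00307 and -0.12. The untested Mxd1 went from -0.11 to -0.20 and -0.037 with pseudocounts of 0.1 and 5 and to 0.00512 after median-of-ratios scaling, and Mxd4 from 0.81 to 1.81 and 0.24 with these pseudocounts. Quantile normalization, which covered filtered genes, was not run for either, and with no filter Mxd4 passed (adjusted p = 0.00134) and Mxd1 did not (adjusted p = 0.170).

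On the log2 scale the MYC sum differed by 1.51, or 1.70, 1.75 and 1.605 under the 3 scalings, and the antagonist sum by 0.09, or 0.31, 0.32 and 0.18, or 0.027 with Mxi1 added to it, a choice made after seeing the data. Their ratio stayed between 1.37 and 1.49. Calls over all genes were 3446 higher and 6681 lower, 2112 and 4430 at a mean of at least 5 TPM, and 4869 and 4871 after median-of-ratios scaling, where 50.0% of calls were higher against 34.0% as deposited. List genes numbered 38 higher and 55 lower as deposited, 57 and 34 after median-of-ratios scaling, 51 and 37 after quantile normalization, and 47 and 44 when scaled without ribosomal proteins, so the balance of directions turned with the scaling. With CANNTG in place of CACGTG 7 of 9 windows matched (77.8%). This is near the background of 72.3% of all RefSeq windows and 64.1% of the windows of genes tested. Leaving out each library in turn gave 3322 to 3371 higher and 6484 to 6532 lower genes and changed no call of a member. With the replicate number as a block, 3457 were higher and 6692 lower and members kept their calls. Same-numbered libraries correlated at -0.00302, 0.0696 and -0.000791 in their deviations from the group means, and WT 3 with knockout 1 at 0.0672. The labels do not say whether same-numbered libraries were handled together, and with so few libraries these values cannot decide it. TPM keep no depth, which leaves the counting error of the low genes Mxd1, Mxd4 and, in WT, Myc unknown.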

Other observations

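Other genes tied to Myc by name or place were looked at after the results were seen. Bmyc, a rodent gene related to Myc that lacks the DNA-binding and dimerization part, stood at 41.0, 39.7 and 40.3 TPM in WT and at 40.7, 39.2 and 39.8 TPM in the knockout, a level above each MYC gene in WT. Its groups overlapped, with a log2 difference of -0.02 (SE 0.0294, adjusted p = 0.646), or of 0.21 after median-of-ratios scaling (adjusted p = 0.000184). Pvt1, the noncoding neighbour of Myc on chromosome 15, stood at 1.03, 1.00 and 0.996 TPM in WT and at 3.04, 2.86 and 3.14 TPM in the knockout, a log2 fold change of 1.00 (adjusted p = 3.48e-07). Mycbp, which codes for a MYC-binding protein, stood at 11.9 ± 0.233 and 10.6 ± 0.698 TPM, and Mycs, a Myc-related gene on the X chromosome, did not exceed 0.0430 TPM in any library.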
